A study of Mus musculus with 10 samples.

Results

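The potassium and Trp channel genes of the mouse genome were examined here in 3 endothelial populations. These were lymphatic endothelial cells from lymph nodes (LN-LEC), blood endothelial cells from lymph nodes (LN-BEC), and lymphatic endothelial cells from the diaphragm (D-LEC). Members were taken by name alone, as every row of the count table whose symbol is a Kcn or a Trpa, Trpc, Trpm or Trpv symbol that ends in a number. This gave 114 members of 23284 symbols in the table, of which 92 are potassium channel genes and 22 are Trp channel genes. The naming rule itself uses no measured value.

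RNA was sequenced from 10 libraries (LN-LEC n = 4, LN-BEC n = 3, D-LEC n = 3), all from C57BL/6 mice aged 6 to 8 weeks. No transgene, deletion or agent distinguishes the groups, which differ in the tissue of origin and in the sort. Cells negative for CD45 and positive for CD31 were sorted on podoplanin (PDPN), the lymph nodes being a mixture of inguinal, axillary, brachial, cervical and mesenteric nodes. Each library pools several mice, so that the spread between libraries describes pools and not single animals. Whether libraries of one group came from separate sorts is not given in the sources used here, and the p-values then measure the spread between these libraries only.

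Counted fragments ranged from 22429940 to 48906070 a library, and 3 fragments are the floor used below. Levels are given as normalized counts, which are fragment counts divided by a size factor for each library; they compare libraries for one gene, but not one gene with another. Levels of different genes are compared only as FPKM, fragments per kilobase of exon scaled to library size. The summed normalized count of 5 lymphatic markers (Pdpn, Lyve1, Prox1, Reln, Flt4) was 94668 to 119450 in LN-LEC, 387240 to 415550 in D-LEC and 2891 to 7955 in LN-BEC, and that of 4 blood endothelial markers (Flt1, Vwf, Notch4, Nrp1) was 69497 to 72713 in LN-BEC and 450 to 1374 in the lymphatic libraries. The sort labels and these markers therefore went together, though for Pdpn this was set in part by the sort on its product. Transcripts of salivary gland (Bpifa2, Amy1, Smr3a, Pip, Dnase1, Aqp5, Bhlha15, Epcam), a list chosen after their values were seen, took 1.63% to 7.77% of the fragments in LN-LEC, 1.74% to 13.4% in LN-BEC and at most 0.0347% in D-LEC. They were highest in LN-LEC replicate 4 and LN-BEC replicate 3, the libraries farthest from the others of their groups, and their values are given below with some of the members that moved with them.

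Potassium channels let potassium leave the cell and so hold the membrane potential negative, and in endothelium this negative potential favors calcium entry, which in turn governs nitric oxide release and junctions. Inward rectifiers and tandem-pore-domain channels are open near rest, calcium-activated channels open when cytosolic calcium rises, and voltage-gated channels open on depolarization. Trp channels are cation channels, many of which pass calcium in response to lipids, stretch, heat or receptor signals. Auxiliary subunits form no pore but change where and how the pore subunits work.

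Of the 114 members, 104 had at least 1 count in some library, 90 had more than 3 counts in at least 1 library, and 91 reached a mean of 1 normalized count in at least 1 population and were tested. At that level 78 members were detected in LN-LEC, 68 in D-LEC and 77 in LN-BEC. At an FPKM of at least 1, 15 members remained in LN-LEC, 17 in D-LEC and 22 in LN-BEC. Most members were therefore scarce in all populations, with a median of 12.6 normalized counts over the 10 libraries for the 91 members tested, against 392 for the 15319 genes tested.

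The summed FPKM of all members was similar in size but different in makeup between the populations. It was 153 ± 22.5 (SD, n = 4) in LN-LEC, 141 ± 3.57 (SD, n = 3) in D-LEC and 120 ± 15.3 (SD, n = 3) in LN-BEC, and the LN-LEC range overlapped both others. The 5 most abundant members held 75.2% of the sum in LN-LEC, 75.9% in D-LEC and 51.3% in LN-BEC. Inward rectifiers made up 59.8% ± 5.59 of the sum in LN-LEC, 14.9% ± 2.97 in D-LEC and 27.1% ± 5.08 in LN-BEC (SD). Voltage-gated pore subunits made up 15.7% ± 0.420 in LN-BEC, 2.91% ± 0.594 in LN-LEC and 0.674% ± 0.149 in D-LEC (SD). Each of these classes had its largest share in a different population.

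**Figure D1:**
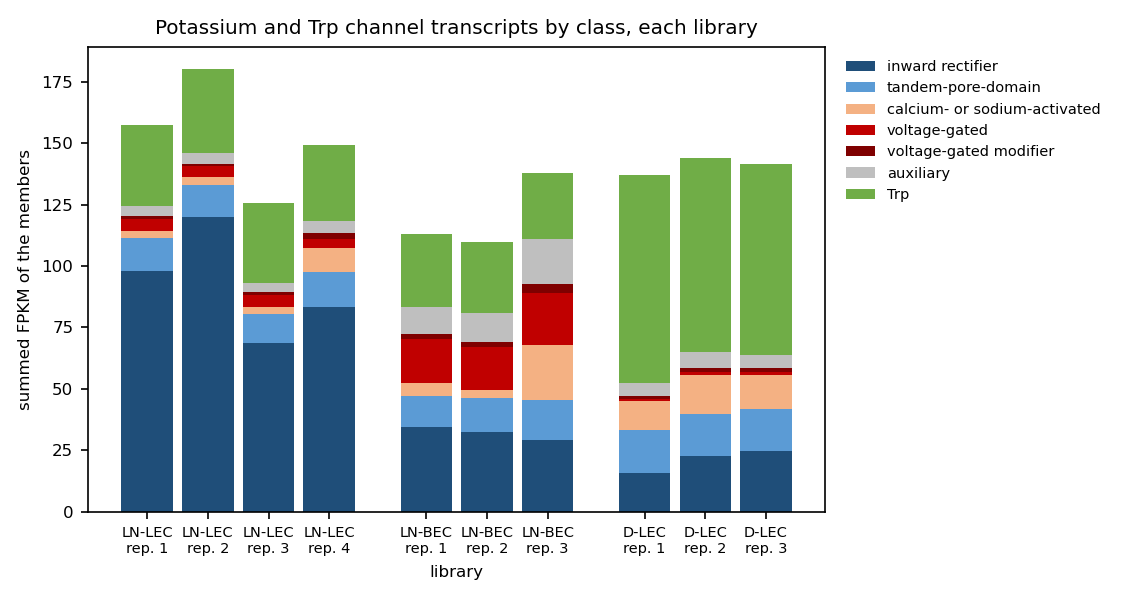
Summed FPKM of the members in each of the 10 libraries (bars), divided by channel class (colors), with all Trp channels as 1 class. Inward rectifiers fill most of the LN-LEC bars, voltage-gated channels and auxiliary subunits are widest in LN-BEC, and the calcium-activated part of LN-LEC replicate 4 and LN-BEC replicate 3 stands above that of the other libraries of their groups.

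Abundant members differed between the populations. Kcnj2 had the highest FPKM in LN-LEC, 70.03 ± 21.6 (SD, n = 4), and by itself held 36.0% to 53.8% of the member sum there. Trpm7 led in LN-BEC with an FPKM of 19.96 ± 1.37 (SD, n = 3), followed by Kcnj2 at 13.3 ± 2.09 and Kcnk6 at 10.3 ± 0.319. In D-LEC, Trpm7 had an FPKM of 24.4 ± 0.561, above Kcnj8 at 12.8 ± 2.53, Kcnn3 at 12.6 ± 2.14 and Kcnk5 at 11.3 ± 0.301, and the last 3 did not differ beyond their spread.

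Each pair of populations was compared in a fit over all genes tested. LN-LEC against D-LEC compares lymphatic endothelium of 2 sites, LN-LEC against LN-BEC compares 2 lineages of lymph node endothelium, and D-LEC against LN-BEC differs in both. Between LN-LEC and D-LEC, 44 of the 91 members passed an adjusted p of 0.05 (48.4%), against 45.8% of all genes tested. Of these, 25 were higher in LN-LEC and 19 in D-LEC, or 27.5% and 20.9% of the members, where 24.1% and 21.7% of all genes were. Between LN-LEC and LN-BEC, 32 members passed (35.2%, background 38.2%), of which 13 had the higher level in LN-LEC and 19 in LN-BEC (14.3% and 20.9%, background 19.8% and 18.4%). Between D-LEC and LN-BEC, 47 members passed (51.6%, background 48.0%), of which 15 had the higher level in D-LEC and 32 in LN-BEC (16.5% and 35.2%, background 22.4% and 25.6%). The share of members called was thus near the background in all 3 comparisons. The 3 comparisons share libraries and their counts are not independent.

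A difference of at least 5-fold was more frequent. It was called for 32 members between LN-LEC and D-LEC (35.2%, background 12.2%), for 16 between LN-LEC and LN-BEC (17.6%, background 9.85%) and for 38 between D-LEC and LN-BEC (41.8%, background 15.2%). These shares belong to genes that were mostly scarce. With a filter at a mean of 10 normalized counts, they came to 19, 11 and 25 of 48 members (39.6%, 22.9% and 52.1%), where 11.5%, 9.36% and 14.3% of the 12790 genes that passed the filter were called. Libraries of the populations compared did not overlap for 46, 37 and 52 of the 91 members in the same order of comparisons (50.5%, 40.7% and 57.1%, background 50%, 44.9% and 56.1%). The median log2 difference over the members tested was 0.37 for LN-LEC minus D-LEC, -0.37 for LN-LEC minus LN-BEC and -0.98 for D-LEC minus LN-BEC, or -0.95 with members absent from a population at their bound, while the medians over all genes tested were 0.03, -0.01 and -0.05. In bulk libraries, fewer cells with a transcript and less of it in each cell cannot be told apart.

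The upstream sequences of 5 members are printed, each for a pattern described below: Kcnj2 was highest in LN-LEC, Kcnn3 and Kcnk5 in D-LEC and Kcna5 in LN-BEC, and Trpm7 was near the same level in all. Each is the 250 bases before the annotated gene start in RefSeq, build GRCm38.p6, written 5′ to 3′ on the gene's own strand, and capitals mark matches on either strand to 4 short motifs. The GC box was searched as GGGCGG. The CACCC box, which Krüppel-like factors bind, was searched by the letters of its name. The core that ETS factors bind was searched as AGGAAG. The TATA box was searched as TATAAA. These coordinates are in another build than the gene coordinates given further on, which are in mm9. The Kcnj2 stretch lies at chr11:111065914-111066163 on the plus strand, Kcnn3 at chr3:89519914-89520163 on the plus strand, Kcnk5 at chr14:20181783-20182032 on the minus strand, Kcna5 at chr6:126535556-126535805 on the minus strand and Trpm7 at chr2:126876262-126876511 on the minus strand.
Kcnj2: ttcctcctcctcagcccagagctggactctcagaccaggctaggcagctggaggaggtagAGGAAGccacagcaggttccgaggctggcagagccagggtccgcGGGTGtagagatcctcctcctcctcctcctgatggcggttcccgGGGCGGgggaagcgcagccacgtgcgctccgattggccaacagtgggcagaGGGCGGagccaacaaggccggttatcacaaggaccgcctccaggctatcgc
Kcnn3: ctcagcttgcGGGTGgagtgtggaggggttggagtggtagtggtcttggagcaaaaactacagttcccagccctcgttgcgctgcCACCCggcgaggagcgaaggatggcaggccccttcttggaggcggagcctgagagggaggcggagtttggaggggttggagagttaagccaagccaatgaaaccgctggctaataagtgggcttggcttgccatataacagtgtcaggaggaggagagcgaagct
Kcnk5: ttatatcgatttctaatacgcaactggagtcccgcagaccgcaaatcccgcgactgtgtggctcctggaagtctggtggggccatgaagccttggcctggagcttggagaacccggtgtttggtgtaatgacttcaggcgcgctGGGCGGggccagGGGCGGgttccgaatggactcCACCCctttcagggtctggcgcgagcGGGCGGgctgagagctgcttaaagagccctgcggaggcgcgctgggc
Kcna5: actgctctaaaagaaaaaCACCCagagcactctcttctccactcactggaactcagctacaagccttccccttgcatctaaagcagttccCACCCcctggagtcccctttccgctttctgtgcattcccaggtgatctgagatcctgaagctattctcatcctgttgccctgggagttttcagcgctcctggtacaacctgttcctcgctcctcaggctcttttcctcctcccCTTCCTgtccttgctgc
Trpm7: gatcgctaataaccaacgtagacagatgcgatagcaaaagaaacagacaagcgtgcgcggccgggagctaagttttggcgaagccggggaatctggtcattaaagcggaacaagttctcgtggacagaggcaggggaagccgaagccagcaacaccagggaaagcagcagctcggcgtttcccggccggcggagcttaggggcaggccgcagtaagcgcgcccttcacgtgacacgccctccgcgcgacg

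The stretches differed in the letters searched. Kcnk5 held 3 matches to the GC box and Kcnj2 held 2, and Kcnn3, Kcna5 and Trpm7 held none. The CACCC box had 2 matches in Kcnn3 and in Kcna5, 1 each in Kcnj2 and Kcnk5, and none in Trpm7, and the ETS core had 1 match in Kcnj2 and 1 in Kcna5. None of the 5 stretches held TATAAA. The GC box stood in 32.7% of 32851 RefSeq promoter windows of this length, the CACCC box in 52%, the ETS core in 29.5% and TATAAA in 12.4%, and among the 100 windows of the 72 tested members with an entry the shares were 38%, 69%, 34% and 4%.

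Inward rectifiers were the most abundant class in LN-LEC, and 8 of the 12 tested members of the class passed in LN-LEC against D-LEC (66.7%, background 45.8%), 5 of them higher in LN-LEC (41.7%, background 24.1%). Kcnj2, a strong inward rectifier that sets the resting potential of many cells, lies on chromosome 11 at 110927478 to 110938139 in mm9. It had 12007, 15617, 7271 and 10183 normalized counts in the LN-LEC libraries, 2529, 1842 and 2136 in LN-BEC and 227, 384 and 831 in D-LEC. The lowest LN-LEC library was above the highest LN-BEC library, which in turn was above every D-LEC library. Kcnj2 was 23.5-fold higher in LN-LEC than D-LEC (log2 difference 4.56 ± 0.51 SE, adjusted p = 0.00015), 5.25-fold higher than in LN-BEC (log2 difference 2.39 ± 0.46 SE, adjusted p = 0.0036) and 4.48-fold higher in LN-BEC than D-LEC (adjusted p = 0.0063). Without D-LEC replicate 3, the highest of its group, the D-LEC level was 37.2-fold below LN-LEC and 7.09-fold below LN-BEC.

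Kcnj15, an inward rectifier of epithelial cells that also joins with the product of Kcnj16, was high in both lymph node populations. It had 948, 941, 927 and 814 normalized counts in LN-LEC, 1329, 1564 and 1421 in LN-BEC, and 209, 214 and 252 in D-LEC, with no overlap between any of the groups. LN-BEC was 6.39-fold above D-LEC (log2 difference 2.68 for LN-BEC over D-LEC, adjusted p = 4e-10) and 1.57-fold above LN-LEC (adjusted p = 0.00012). Kcnj14 also was lowest in D-LEC, with 93.3, 127 and 91.7 normalized counts against 491, 419, 500 and 356 in LN-LEC and 298, 333 and 193 in LN-BEC. Its LN-LEC level was 4.29-fold that of D-LEC (adjusted p = 2.4e-06), and the smaller 1.62-fold difference from LN-BEC (adjusted p = 0.013) was lost without LN-BEC replicate 3 (adjusted p = 0.05). Kcnj16 was at 0 in all D-LEC libraries and at 1.27 to 9.05 normalized counts in LN-LEC and 3.46 to 15.8 in LN-BEC. Against the floor of 3 counts per library it was at least 1.71-fold higher in LN-LEC (adjusted p = 0.0095) and at least 3.68-fold higher in LN-BEC (adjusted p = 0.0026).

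The pore subunits of ATP-sensitive channels, which couple membrane potential to metabolism, went the other way. Kcnj8 had 657, 940 and 923 normalized counts in D-LEC, 565, 490, 524 and 487 in LN-LEC and 161, 145 and 147 in LN-BEC. Its libraries separated completely, and it was 1.61-fold higher in D-LEC than LN-LEC (log2 difference -0.69 ± 0.13 SE for LN-LEC minus D-LEC, adjusted p = 0.00056) and 5.54-fold higher than in LN-BEC (adjusted p = 9.2e-09). The related subunit Kcnj11 had 18.9, 14.03 and 28.1 normalized counts in D-LEC and at most 7.003 in any lymph node library. It was 6.21-fold higher in D-LEC than LN-LEC (adjusted p = 0.0062), and its 5.47-fold difference from LN-BEC (adjusted p = 0.013) was lost without D-LEC replicate 3 (adjusted p = 0.057) and was 10.3-fold without LN-BEC replicate 1. Kcnj11 is also a channel of skeletal muscle, and transcripts of that tissue moved with it: Acta1 had 476 to 573 normalized counts in D-LEC and at most 6.05 in the lymph node libraries, although the summed list of 10 muscle markers, which Ttn dominated, was lower in D-LEC (1734 to 2561) than in the lymph node libraries (2864 to 3991). The part of muscle transcripts in the Kcnj11 result was not tested.

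Kcnj5, a G protein-gated inward rectifier known from the heart, was at 0 in all 4 LN-LEC libraries and in 2 LN-BEC libraries, with 0.865 normalized counts in LN-BEC replicate 2. The D-LEC libraries had 98.4, 42.1 and 42.1 normalized counts. Kcnj5 was at least 18.8-fold higher in D-LEC than LN-LEC (adjusted p = 1.9e-05) and 185 times its single LN-BEC count (95% counting interval 32.8 to 7360, adjusted p = 5.8e-05). Its partner Kcnj3 had 0 counts in all 10 libraries. Kcnj1, the renal potassium secretory channel, was scarce, with 16.5 to 22.6 normalized counts in LN-LEC, 3.15 to 7.003 in LN-BEC and 1.26 to 2.004 in D-LEC. It was 10.9-fold higher in LN-LEC than D-LEC (adjusted p = 0.0003) and 3.65-fold higher than in LN-BEC (adjusted p = 0.009). The latter call was lost when LN-BEC replicate 3 and LN-LEC replicate 4 were both left out (adjusted p = 0.079). Its difference between LN-BEC and D-LEC did not pass the threshold.

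Tandem-pore-domain channels carry the background potassium leak, and 7 of the 14 in the table were tested. Kcnk6, a channel found largely in lysosomes, was the most abundant of them in LN-LEC and LN-BEC. It had 1018 to 1197 normalized counts in LN-LEC and 1213 to 1285 in LN-BEC, and 571, 615 and 610 in D-LEC. It was 1.85-fold higher in LN-LEC than D-LEC (log2 difference 0.89 ± 0.09 SE, adjusted p = 1.9e-06) and 2.10-fold higher in LN-BEC than D-LEC (adjusted p = 4.1e-07), while the difference between LN-LEC and LN-BEC did not pass the threshold (adjusted p = 0.11).

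Kcnk5, an acid-sensitive channel of this class, had the opposite order and took the lead in D-LEC. It had 1184, 1107 and 1120 normalized counts in D-LEC, 250, 282, 223 and 340 in LN-LEC and 84.9, 78.7 and 102 in LN-BEC. No library of one population reached the range of another. Kcnk5 was 4.07-fold higher in D-LEC than LN-LEC (log2 difference -2.03 ± 0.14 SE for LN-LEC minus D-LEC, adjusted p = 3.6e-08), 12.8-fold higher than in LN-BEC (adjusted p = 5.4e-10) and 3.15-fold higher in LN-LEC than LN-BEC (adjusted p = 1.1e-06). Kcnk2, a stretch- and lipid-sensitive channel, was scarce, with 11.4, 11.02 and 16.5 normalized counts in D-LEC, 8.40 to 12.97 in LN-BEC and 0 to 5.18 in LN-LEC, and it was 6.08-fold higher in D-LEC than LN-LEC (adjusted p = 0.0085), or 10.1-fold without LN-LEC replicate 1.

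Of the calcium-activated channels of small and intermediate conductance, whose opening hyperpolarizes endothelium, Kcnn3 and Kcnn4 were highest at different sites. Kcnn1, also of small conductance, had 10.2 to 22.6 normalized counts in LN-LEC, 0.865 to 13.7 in LN-BEC and 1.26 to 3.31 in D-LEC. Its call as higher in LN-LEC than D-LEC was lost without LN-LEC replicate 3 or any D-LEC replicate. Kcnn2 had at most 5.66 in any library. Kcnn3, the small-conductance channel known from endothelium, lies on chromosome 3 at 89324086 to 89476416 in mm9. It had 2461, 3374 and 2800 normalized counts in D-LEC, 36.3, 34.3, 18.1 and 23.3 in LN-LEC and 77.9, 48.4 and 41.0 in LN-BEC. The D-LEC libraries stood far above all 7 lymph node libraries, and Kcnn3 was 104-fold higher in D-LEC than LN-LEC (log2 difference -6.70 ± 0.24 SE for LN-LEC minus D-LEC, adjusted p = 6.1e-10) and 51.0-fold higher than in LN-BEC (log2 difference 5.67 ± 0.25 SE, adjusted p = 2.7e-09). The 2.04-fold higher level in LN-BEC than LN-LEC (adjusted p = 0.011) was lost without LN-BEC replicate 1 (adjusted p = 0.056).

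Kcnn4, the intermediate-conductance channel of endothelium, lymphocytes and secretory glands, had 104, 116, 127 and 497 normalized counts in LN-LEC, 241, 143 and 1227 in LN-BEC and 5.05, 2.004 and 3.31 in D-LEC. All lymph node libraries were above D-LEC, by 63.2-fold in LN-LEC (log2 difference 5.98 ± 1.46 SE, adjusted p = 0.011) and 155-fold in LN-BEC (log2 difference -7.27 ± 1.47 SE for D-LEC minus LN-BEC, adjusted p = 0.0044), and LN-LEC replicate 4 and LN-BEC replicate 3 were far above the others of their groups. The salivary gland list went the same way, with summed normalized counts of 593180, 465510, 474340 and 2390400 in LN-LEC, 935440, 562730 and 5043300 in LN-BEC and 10222, 438 and 505 in D-LEC. Per 100000 of that sum, Kcnn4 had 17.5 to 26.7 in the 7 lymph node libraries, a 1.53-fold range where its level had an 11.8-fold range, and 49.4, 458 and 655 in the D-LEC libraries. Without LN-LEC replicate 4 and LN-BEC replicate 3, Kcnn4 was 33.3-fold higher in LN-LEC than D-LEC (adjusted p = 8.8e-08) and 54.6-fold higher in LN-BEC than D-LEC (adjusted p = 2.4e-08). The part of the salivary transcripts in these levels was not tested.

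Of the 27 members with at least 10 counts in every lymph node library, Kcnn4 and Kcnk1 were the ones at least 2 times the mean of the other libraries of their group in both LN-LEC replicate 4 and LN-BEC replicate 3. Some members with fewer counts were raised there as well, such as Kcnip3, at 5.13 and 4.82 times that mean. Kcnk1, a weakly rectifying leak channel, had 32.4, 13.96, 20.4 and 103 normalized counts in LN-LEC, 37.6, 28.5 and 281 in LN-BEC and 11.4, 1.002 and 12.4 in D-LEC. Its 13.8-fold higher level in LN-BEC than D-LEC (adjusted p = 0.034) came to 4.0-fold without LN-BEC replicate 3 (adjusted p = 0.097), and the call was also lost without D-LEC replicate 1, 2 or 3 (adjusted p = 0.087, 0.096 and 0.076). Kcns1, an electrically silent modifier subunit, had 15.6, 8.89, 24.9 and 78.0 normalized counts in LN-LEC, 40.3, 13.8 and 215 in LN-BEC and 0 to 3.78 in D-LEC. Kcns1 was 42.0-fold higher in LN-BEC than D-LEC (adjusted p = 0.013), or 12.5-fold without both libraries (adjusted p = 0.0026), and its 15.9-fold higher level in LN-LEC than D-LEC (adjusted p = 0.046) was 7.90-fold without LN-LEC replicate 4 (adjusted p = 0.1). That call was lost as well without LN-LEC replicate 1 or 3, LN-BEC replicate 1, or any D-LEC replicate, with an adjusted p of 0.054 to 0.13. Kcne1, the partner of Kcnq1 in the heart and in secretory tissue, had 81.1 normalized counts in LN-LEC replicate 4 and 277 in LN-BEC replicate 3. It had at most 2.52 in the other 8 libraries and passed in no comparison. Per 100000 of the salivary gland sum, Kcnk1 had 3.0 to 5.58 in the lymph node libraries, a 1.86-fold range against 20.2-fold in level. Kcns1 had 1.91 to 5.24 there, a 2.75-fold range against 24.2-fold in level. The part of the salivary transcripts in the levels of Kcnk1, Kcns1 and Kcne1 was not tested.

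**Figure D2:**
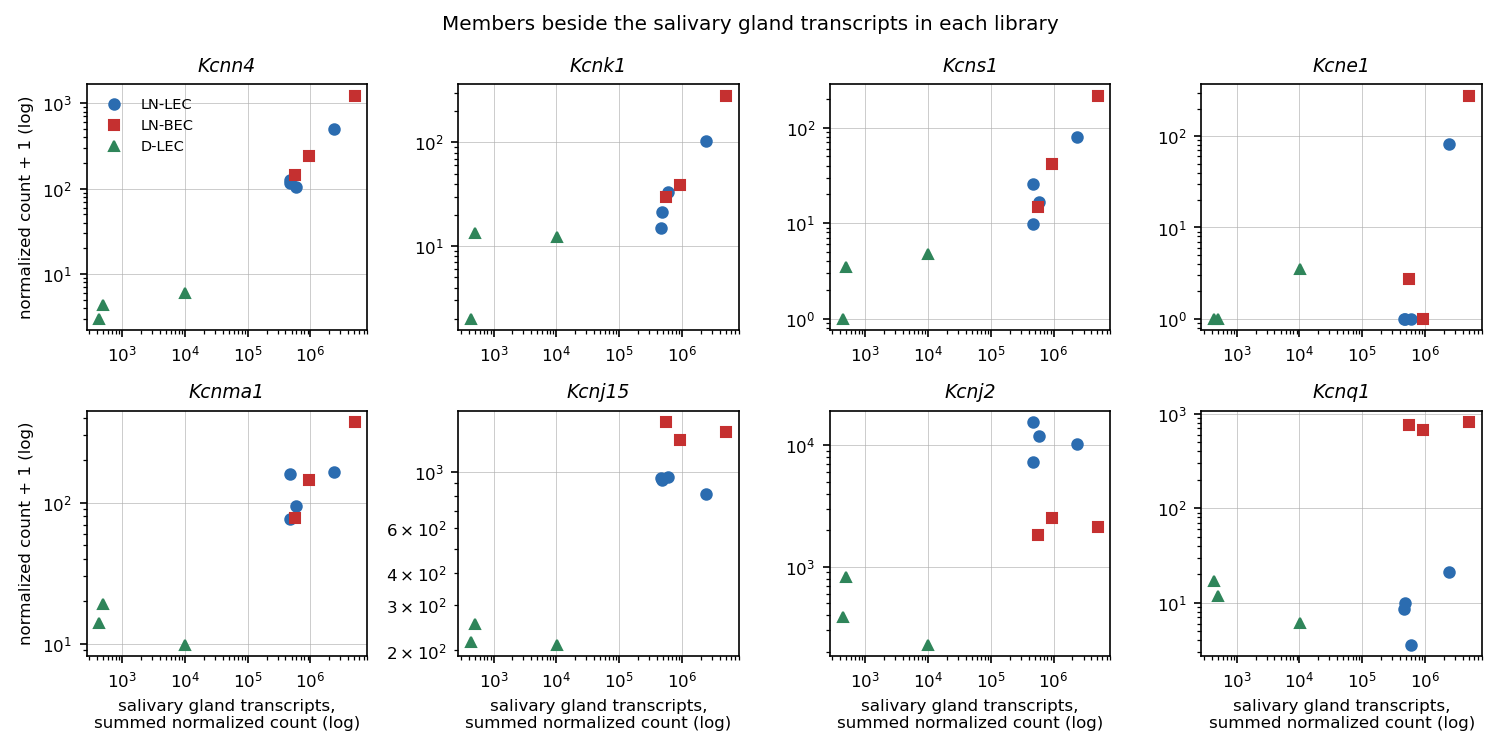
Normalized count plus 1 of 8 members (log axis) against the summed normalized count of 8 salivary gland transcripts (log axis), 1 point for each of the 10 libraries. Kcnn4, Kcnk1 and Kcns1 climb with the sum across the lymph node libraries and Kcne1 stands up only in the libraries with the highest sums, whereas Kcnj2 and Kcnj15 in LN-LEC replicate 4 were 0.875 and 0.867 times the mean of the other libraries of the group, and in LN-BEC replicate 3 were 0.978 and 0.983 times it.

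Kcnma1, the large-conductance channel opened by calcium and voltage, was also higher in both lymph node populations. It had 93.3, 159, 75.8 and 165 normalized counts in LN-LEC, 144, 77.0 and 374 in LN-BEC and 8.83, 13.03 and 18.2 in D-LEC. LN-LEC was 9.09-fold above D-LEC (adjusted p = 0.0013) and LN-BEC 14.4-fold above it (adjusted p = 0.00043), and without LN-LEC replicate 4 and LN-BEC replicate 3 the folds were 7.90 and 7.89 (adjusted p = 3.1e-05 and adjusted p = 4.7e-05). Its beta subunit Kcnmb1, typical of smooth muscle, was at 0 in D-LEC, at 0 to 8.17 normalized counts in LN-LEC and at 4.32 to 17.9 in LN-BEC, at least 3.81-fold higher in LN-BEC than D-LEC (adjusted p = 0.0064). The summed normalized count of 8 mural cell markers, which include the smooth muscle genes Myh11 and Acta2, was 3362 to 5413 in LN-LEC, 5970 to 7848 in LN-BEC and 334 to 496 in D-LEC, with none of the 8 at 0 in every library. Rgs5 made up most of the sum in the lymph node populations, at 2733 to 4542, 4046 to 4612 and 42.9 to 103 in the same order. Acta2 had 158 to 272, 603 to 1229 and 52.1 to 103, and Myh11 had 110 to 145, 329 to 610 and 10.1 to 23.1. In LN-LEC replicate 4 and LN-BEC replicate 3, Kcnma1 was 1.51 and 3.39 times the mean of the other libraries of the group. Kcnmb1, with few counts, was 3.16 and 2.05 times it, and the salivary gland list 4.68 and 6.73 times. The part of mural or salivary transcripts in the Kcnma1 and Kcnmb1 results was not tested.

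A different beta subunit marked D-LEC. Kcnmb2, which inactivates the large-conductance channel, had 36.6, 16.03 and 37.2 normalized counts in D-LEC and 0 in all 7 lymph node libraries. It was at least 9.23-fold higher in D-LEC than LN-LEC (adjusted p = 0.00032) and at least 10.7-fold higher than in LN-BEC (adjusted p = 0.00054). The sodium-activated channel Kcnt2 also was highest in D-LEC, with 83.2, 133 and 169 normalized counts against 12.4 to 43.4 in LN-LEC and 3.46 to 23.6 in LN-BEC. It was 4.54-fold higher than in LN-LEC (adjusted p = 0.0027) and 8.78-fold higher than in LN-BEC (adjusted p = 0.00056). Kcnu1, a channel known from sperm, was highest in LN-LEC at 11.4 to 28.9 normalized counts and 9.81-fold above LN-BEC (adjusted p = 0.0093), where its libraries had 2.63, 0 and 3.15. The D-LEC libraries had 11.4, 4.01 and 0.826 normalized counts, against which LN-LEC did not pass (log2 difference 1.92, adjusted p = 0.064).

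Among the voltage-gated pore subunits, 23 of 30 members were tested. Between D-LEC and LN-BEC, 1 had the higher level in D-LEC, 11 had it in LN-BEC (4.35% and 47.8%, background 22.4% and 25.6%) and 11 did not pass. Kcnq1, a slowly activating channel of heart and epithelium, lies on chromosome 7 at 150293159 to 150612947 in mm9. It had 666, 756 and 818 normalized counts in LN-BEC, 2.59 to 20.1 in LN-LEC and 5.05 to 16.03 in D-LEC, so that every LN-BEC library exceeded every lymphatic library. It was 65.5-fold higher in LN-BEC than LN-LEC (log2 difference -6.03 ± 0.38 SE for LN-LEC minus LN-BEC, adjusted p = 1.2e-07), or 111-fold without LN-LEC replicate 4, and 67.9-fold higher than in D-LEC (adjusted p = 2.4e-07). Of its exon bases, 3.99% are shared with the overlapping Kcnq1ot1, and since ambiguous fragments were not counted, fragments from those bases were left out. Kcne3, the partner that keeps the Kcnq1 channel open, had its highest level in the same population, with 350, 391 and 493 normalized counts in LN-BEC, 38.3 to 72.4 in LN-LEC and 73.5 to 97.2 in D-LEC. It was 7.55-fold higher in LN-BEC than LN-LEC (adjusted p = 1.7e-07) and 4.63-fold higher than in D-LEC (adjusted p = 3.8e-06).

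Kcna5 and Kcnc2 also were highest in LN-BEC. Kcna5, a fast delayed rectifier of vessels and atrium whose upstream stretch is printed above, had 338, 339 and 526 normalized counts in LN-BEC and at most 20.7 in the lymphatic libraries. It was 29.0-fold higher than in LN-LEC (log2 difference -4.86 ± 0.42 SE for LN-LEC minus LN-BEC, adjusted p = 1.4e-06) and 32.8-fold higher than in D-LEC (adjusted p = 2.4e-06), or 55.6-fold without D-LEC replicate 3. Kcnc2, a fast-closing channel of neurons, had 218, 131 and 236 normalized counts in LN-BEC and at most 9.05 elsewhere, 35.4-fold above LN-LEC (adjusted p = 3.8e-07) and 48.3-fold above D-LEC (adjusted p = 5.4e-07), or 82.1-fold without D-LEC replicate 3.

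Kcnh1, an ether-a-go-go channel best known from brain, was highest in LN-BEC, intermediate in LN-LEC and near 0 in D-LEC. It had 292, 345 and 288 normalized counts in LN-BEC, 73.9, 71.1, 67.8 and 62.2 in LN-LEC and 1.26, 0 and 1.65 in D-LEC, which came to 3 counts over the D-LEC libraries. LN-BEC was 4.44-fold above LN-LEC (log2 difference -2.15 ± 0.21 SE for LN-LEC minus LN-BEC, adjusted p = 2.2e-06). Over the D-LEC counts, the ratio was 67.4 for LN-LEC (95% counting interval 22.8 to 329, adjusted p = 3.2e-08) and 310 for LN-BEC (95% counting interval 106 to 1500, adjusted p = 9.3e-10). Kcna3, the voltage-gated channel of T lymphocytes, had 7.88, 9.51 and 9.45 normalized counts in LN-BEC and 0 in all lymphatic libraries, at least 2.76-fold above LN-LEC (adjusted p = 0.0037) and at least 2.90-fold above D-LEC (adjusted p = 0.0055). The summed level of 10 lymphocyte markers moved with it, at 963 to 1521 in LN-BEC, 408 to 567 in LN-LEC and 35.5 to 94.6 in D-LEC, with Cd3e at 87.2 to 139 in LN-BEC and at most 18.9 elsewhere. The part of lymphocyte transcripts in the Kcna3 result was not tested.

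LN-LEC had their own voltage-gated set. Kcna2, a channel of axons and vascular muscle that activates at low voltage, had 778, 674, 880 and 535 normalized counts in LN-LEC, 29.8, 12.1 and 38.9 in LN-BEC and 15.1, 1.002 and 7.44 in D-LEC. Every LN-LEC library was above all others, and Kcna2 was 27.2-fold higher than in LN-BEC (log2 difference 4.76 ± 0.43 SE, adjusted p = 8e-06) and 96.4-fold higher than in D-LEC (log2 difference 6.59 ± 0.51 SE, adjusted p = 2.2e-06), or 157-fold without D-LEC replicate 1. Kcna6, of the same family, had 90.7, 99.0, 98.4 and 61.0 normalized counts in LN-LEC, 5.19 to 13.7 in LN-BEC and 2.52, 0 and 0 in D-LEC. It was 8.23-fold higher than in LN-BEC (adjusted p = 0.0002), and its ratio to the 2 counts in D-LEC was 123 (95% counting interval 33.9 to 1020, adjusted p = 3.3e-06). Kcnc1, a fast-spiking channel of neurons, had 80.4, 81.2, 32.8 and 66.6 normalized counts in LN-LEC and at most 3.31 in the other libraries. It was 33.7-fold higher than in LN-BEC (adjusted p = 1.6e-05) and 32.0-fold higher than in D-LEC (adjusted p = 1.7e-05), or 54.0-fold without D-LEC replicate 3. Kcnc4 showed the reverse at a low level, with 0 in LN-LEC, 2.59 to 4.20 normalized counts in LN-BEC and 4.13 to 7.01 in D-LEC, at least 1.79-fold higher in D-LEC than LN-LEC (adjusted p = 0.0029). In LN-BEC its level is at or under the floor, so no fold is given, and the call against LN-LEC (adjusted p = 0.012) was lost without LN-BEC replicate 3 and LN-LEC replicate 4 (adjusted p = 0.066).

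D-LEC had 1 voltage-gated member above both lymph node populations, Kcnd3, which carries a rapidly inactivating current. It had 35.3, 52.1 and 66.1 normalized counts in D-LEC, 0 to 8.89 in LN-LEC and 4.20 to 9.63 in LN-BEC. Kcnd3 was 12.5-fold higher in D-LEC than LN-LEC (adjusted p = 0.00029) and 7.23-fold higher than in LN-BEC (adjusted p = 0.0023).

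**Figure D3:**
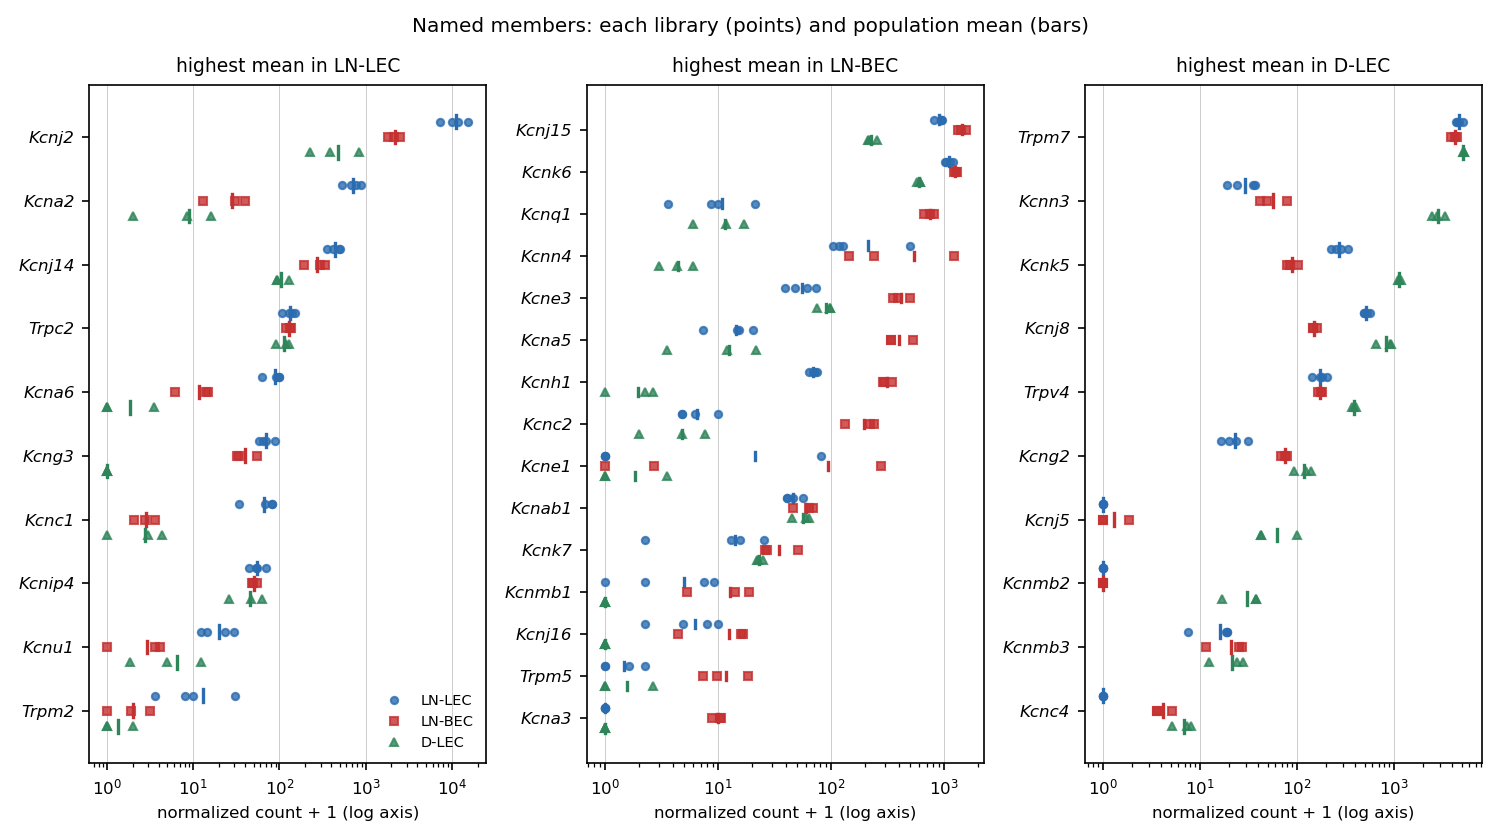
Normalized count plus 1 (log axis) of the members named by the rule, in each library (points; circles LN-LEC, squares LN-BEC, triangles D-LEC) with the population mean (bars), in panels by the population with the highest mean. Kcna2 and Kcnc1 stand apart in LN-LEC, Kcnq1, Kcna5 and Kcnc2 in LN-BEC, and Kcnn3, Kcnj5 and Kcnmb2 in D-LEC, while Trpm7, Trpc2 and Kcnip4 lie close in all 3.

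Modifier subunits form no channel alone and alter voltage-gated channels. Kcng3 had 86.8, 57.1, 63.3 and 68.5 normalized counts in LN-LEC, 31.5, 53.6 and 32.6 in LN-BEC and 0 in all D-LEC libraries. It was at least 22.3-fold higher in LN-LEC than D-LEC (adjusted p = 7.8e-07) and at least 12.7-fold higher in LN-BEC (adjusted p = 2.4e-06), and the lymph node populations did not differ past the threshold (adjusted p = 0.07). Kcng2, the most abundant modifier by FPKM in D-LEC, had 93.3, 140 and 123 normalized counts in D-LEC, 68.3 to 78.8 in LN-BEC and 15.6 to 30.2 in LN-LEC. It was lowest in LN-LEC, 5.25-fold below D-LEC (adjusted p = 8.1e-06) and 3.28-fold below LN-BEC (adjusted p = 0.0002). Of the 7 modifiers tested, 4 were higher in LN-BEC than D-LEC and none was higher in D-LEC (57.1% and 0%, background 25.6% and 22.4%).

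Of the 15 auxiliary subunits tested, 5 passed between LN-LEC and D-LEC (33.3%, background 45.8%), 2 between LN-LEC and LN-BEC (13.3%, background 38.2%) and 6 between D-LEC and LN-BEC (40%, background 48.0%). Kcne4, an inhibitor of several voltage-gated channels, had 63.5, 36.8, 14.7 and 54.7 normalized counts in LN-LEC, 88.4, 50.2 and 130 in LN-BEC and 6.31, 4.01 and 1.65 in D-LEC. It was 11.1-fold higher in LN-LEC than D-LEC (adjusted p = 0.00044) and 23.1-fold higher in LN-BEC than D-LEC (adjusted p = 5.1e-05). Without LN-LEC replicate 4 and LN-BEC replicate 3, the folds were 9.86 and 17.7. Per 100000 of the salivary gland sum, Kcne4 had a 4.68-fold range in the lymph node libraries, where its level had an 8.86-fold range. The salivary gland and mural lists were also lowest in D-LEC, and their part in the Kcne4 result was not tested. Kcnab2, a beta subunit of the Kcna channels, was highest in D-LEC, with 141, 214 and 109 normalized counts against 56.9, 61.4 and 59.9 in LN-BEC and 10.4 to 22.9 in LN-LEC. It was 8.39-fold higher in D-LEC than LN-LEC (adjusted p = 2.4e-06), 2.60-fold higher than in LN-BEC (adjusted p = 0.0025) and 3.23-fold higher in LN-BEC than LN-LEC (adjusted p = 0.00063). Thus the alpha subunits Kcna2 and Kcna6 had their highest level where Kcnab2 had its lowest.

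Of the 19 Trp channels tested, 8 passed between LN-LEC and D-LEC (42.1%, background 45.8%), 8 between LN-LEC and LN-BEC (42.1%, background 38.2%) and 9 between D-LEC and LN-BEC (47.4%, background 48.0%). Trpc1, which can join with other TRPC subunits, was highest in D-LEC, with 156, 220 and 235 normalized counts in D-LEC, 22.9 to 36.3 in LN-LEC and 8.40 to 20.1 in LN-BEC. It was 7.30-fold higher in D-LEC than LN-LEC (adjusted p = 2.4e-06) and 13.6-fold higher than in LN-BEC (adjusted p = 6.3e-07). Trpc6, a channel opened by diacylglycerol, had 13.1, 21.6 and 27.3 normalized counts in LN-BEC, 6.31 to 13.03 in D-LEC and 0 to 5.08 in LN-LEC, and was 6.52-fold higher in LN-BEC than LN-LEC (adjusted p = 0.0067).

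Trpm7, a magnesium-permeable channel fused to a kinase and expressed by most cells, was the most abundant Trp member in the lymph node populations. It had 4521, 5136, 4365 and 4765 normalized counts in LN-LEC, 4515, 4310 and 3937 in LN-BEC and 5150, 5249 and 5296 in D-LEC. The 1.23-fold higher level in D-LEC than LN-BEC (log2 difference 0.29 ± 0.09 SE, adjusted p = 0.014) was lost without LN-BEC replicate 3 (adjusted p = 0.064), and neither other comparison passed. Its relative Trpm6 was scarce and highest in D-LEC at 54.1 to 59.3 normalized counts, against 22.8 to 43.1 in LN-BEC and 1.13 to 17.0 in LN-LEC. D-LEC was 5.61-fold above LN-LEC (adjusted p = 0.0016). LN-BEC also passed as higher than LN-LEC, a call lost without LN-LEC replicate 2 (adjusted p = 0.078) or LN-BEC replicate 3 (adjusted p = 0.11). It was lost as well in a fit of these 2 populations alone (adjusted p = 0.059). Trpm4, a calcium-activated channel that passes sodium but not calcium, was lower in LN-LEC, at 132 to 185 normalized counts, than in LN-BEC, at 306 to 348, or in D-LEC, at 224 to 343. The folds were 2.10 (adjusted p = 0.00013) and 1.86 (adjusted p = 0.00055).

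Other TRPM members were scarce. Trpm3, a channel opened by heat and steroids, had 71.8, 54.5 and 59.9 normalized counts in LN-BEC and at most 11.9 in the lymphatic libraries, 8.22-fold above LN-LEC (adjusted p = 3.3e-05) and 6.73-fold above D-LEC (adjusted p = 0.00015). Trpm5, a channel of taste cells, had 8.75, 17.3 and 6.30 normalized counts in LN-BEC and at most 1.65 elsewhere, and its ratio to the 2 counts of LN-LEC was 22.3 (95% counting interval 5.75 to 192, adjusted p = 0.0039). Trpm1, known from retina and melanocytes, had 11.4, 33.1 and 37.2 normalized counts in D-LEC and was 5.74-fold higher than in LN-LEC (adjusted p = 0.0022) and 16.5-fold higher than in LN-BEC (adjusted p = 0.00028). Trpm2, opened by ADP-ribose and oxidative stress, was highest in LN-LEC but spread widely there, with 2.59, 8.89, 29.4 and 6.92 normalized counts, against 0 to 2.10 in LN-BEC and 0 to 1.002 in D-LEC. Its ratio to the 3 LN-BEC counts was 12.4 (95% counting interval 3.97 to 62.1, adjusted p = 0.02), and that call was lost without LN-LEC replicate 3 (adjusted p = 0.083), without LN-BEC replicate 1 (adjusted p = 0.07) and without LN-BEC replicate 2 (adjusted p = 0.058).

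Trpv4 and Trpv2, of a group whose members respond to stretch, osmotic change and heat, differed by site. Trpv4, a flow- and swelling-sensitive calcium channel of endothelium, had 387, 367 and 408 normalized counts in D-LEC, 180, 142, 171 and 205 in LN-LEC and 164, 181 and 179 in LN-BEC. The D-LEC libraries were above all lymph node libraries, 2.18-fold above LN-LEC (log2 difference -1.12 ± 0.14 SE for LN-LEC minus D-LEC, adjusted p = 1.9e-05) and 2.21-fold above LN-BEC (adjusted p = 3.1e-05), and the lymph node populations overlapped (log2 difference 0.02 ± 0.14 SE, adjusted p = 0.93). Trpv2 had the opposite order, with 10.02 to 12.6 normalized counts in D-LEC, 46.7 to 56.6 in LN-LEC and 50.2 to 67.2 in LN-BEC. It was 4.70-fold higher in LN-LEC than D-LEC (adjusted p = 3.3e-05) and 5.16-fold higher in LN-BEC than D-LEC (adjusted p = 2.4e-05). Trpa1, the irritant sensor and single TRPA member, had 0 counts except in 2 LN-LEC libraries, at 1.13 and 2.51 normalized counts, and was not tested.

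Some members passed in none of the comparisons. These were 31 of the 91 tested, and the 6 with the highest mean FPKM were Trpc2, Kcnmb3, Kcnk7, Kcnab1, Kcnip4 and Kcne1, whose levels in 2 libraries are given above. Trpc2, a channel of vomeronasal neurons, had 106 to 149 normalized counts in LN-LEC, 118 to 137 in LN-BEC and 91.2 to 130 in D-LEC. The difference between LN-LEC and LN-BEC was 0.03 ± 0.19 (SE) on the log2 scale. Kcnab1 had 39.6 to 55.9, 45.2 to 68.3 and 44.1 to 62.8 normalized counts in the same order, and Kcnip4, a calcium sensor that binds the Kcnd channels, had 43.0 to 68.6, 47.3 to 54.3 and 25.2 to 62.1. Their groups overlapped in each comparison. The smaller counts of Kcnmb3, at 6.48 to 27.1 normalized counts, and Kcnk7, at 1.27 to 50.2, leave wider errors, with SE of 0.49 to 0.59 on the log2 scale.

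No more than 3 counts in any library were found for 24 members, among them the tandem-pore-domain genes Kcnk4, Kcnk9, Kcnk10, Kcnk12, Kcnk13, Kcnk15 and Kcnk16, the inward rectifiers Kcnj3, Kcnj4, Kcnj6 and Kcnj9, and Trpm8, Trpv1 and Trpv5. Of these, 10 were at 0 in all libraries. At this depth they were not detectable, which does not show that they were absent.

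Genes that work with these channels were examined as 3 lists, of calcium entry and release, of partners of potassium channels, and of pumps and the genes of endothelial hyperpolarization, 41 genes of which 37 were tested. Between LN-LEC and D-LEC, 10 were higher in LN-LEC, 13 in D-LEC and 14 did not pass; between LN-LEC and LN-BEC, 3 were higher in LN-LEC, 18 in LN-BEC and 16 did not pass; and between D-LEC and LN-BEC, 9 were higher in D-LEC, 15 in LN-BEC and 13 did not pass. The background shares called were 24.1% and 21.7%, 19.8% and 18.4%, and 22.4% and 25.6%, each pair in the order of the populations named. The median log2 differences were -0.09, -0.54 and -0.30. Of the 8 channel partners tested, 5, with Lrrc26 among them, were higher in LN-BEC than D-LEC and none was higher in D-LEC (background 25.6% and 22.4%).

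Partners did not always share the pattern of their channel. Abcc9, the sulfonylurea receptor that joins with Kcnj8, had means of 807 ± 81.8 normalized counts in LN-LEC, 935 ± 58.2 in D-LEC and 1145 ± 153 in LN-BEC (SD). Its LN-BEC level exceeded that of LN-LEC (log2 difference -0.49 for LN-LEC minus LN-BEC, adjusted p = 0.0027), whereas Kcnj8 was lowest in LN-BEC. Dpp10, a partner of the Kcnd channels, had 47.5 ± 7.41 normalized counts in LN-LEC, 69.9 ± 22.4 in LN-BEC and, from 1 count, 0.275 ± 0.477 in D-LEC, where Kcnd3 had its highest level. Lrrc55 and Lrrc26, gamma subunits of the Kcnma1 channel, differed from each other. Lrrc55 had 234 ± 11.2 normalized counts in LN-BEC and 24.2 ± 4.72 in LN-LEC (log2 difference -3.26 for LN-LEC minus LN-BEC, adjusted p = 1.9e-06), while Lrrc26, a gene of secretory glands, had 105 ± 128 and 35.7 ± 48.9 in the same order, with an SD above the mean in both. Lrrc26 had 252 in LN-BEC replicate 3 against 20.8 and 41.1, and 109 in LN-LEC replicate 4 against 5.65 to 15.6. These libraries held the most salivary gland transcripts, whose part in the Lrrc26 levels was not tested.

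Of the calcium entry genes, Piezo2, a stretch-gated channel listed under its older symbol Fam38b, had the largest difference in LN-LEC against D-LEC. It had means of 859 ± 122 normalized counts in LN-LEC, 24189 ± 2515 in D-LEC and 6998.5 ± 1002 in LN-BEC (SD). It was highest in D-LEC, both against LN-LEC (log2 difference -4.80 for LN-LEC minus D-LEC, adjusted p = 1.5e-11) and against LN-BEC (log2 difference 1.78, adjusted p = 1.2e-07). Piezo1, under the symbol Fam38a, had 272 ± 17.2, 350 ± 104 and 488 ± 87.9 normalized counts in the same order and passed in LN-LEC against LN-BEC alone (log2 difference -0.83, adjusted p = 0.0031). Among genes of pumps and hyperpolarization, the largest difference in each comparison was that of Gja5, a connexin of arterial endothelium, with 14.1 ± 14.5 normalized counts in LN-LEC, 0.609 ± 0.535 in D-LEC and 1016 ± 154 in LN-BEC. Its level in LN-BEC exceeded that in LN-LEC (log2 difference -5.90 for LN-LEC minus LN-BEC, adjusted p = 4e-06). Atp1b2, a beta subunit of the sodium pump, was also highest in LN-BEC, at 307 ± 33.1 normalized counts against 34.5 ± 7.002 in LN-LEC (log2 difference -3.12, adjusted p = 4.1e-08).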

How the data were processed

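The authors pooled cells sorted from several mice for each library, amplified the RNA with the Ovation RNA-Seq V2 kit, sequenced it on an Illumina HiSeq instrument, trimmed reads with Fastx-trimmer, aligned them with STAR to mm9 and counted fragments per gene with featureCounts 1.4.4. The deposited values are raw fragment counts per gene symbol, in which strand was not used and fragments that were ambiguous or mapped to several places were not counted, so overlapping genes and near-identical copies are underestimated. Kcnmb4 shares 28.46% of its exon bases with another gene and is uncertain; 8 members share any. All columns were mapped to a library by name, and 0 were left unmapped. Groups came from the labels.

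From the counts, size factors (DESeq2 1.42.0) gave normalized counts, and FPKM used the exon length of the table and TMM-scaled library sizes. Predicted and clone-named symbols, 3832 in all, were left out, and genes with a mean of at least 1 normalized count in at least 1 population were tested (15319). Differences came from edgeR 4.0.16 (R 4.3.3): its quasi-likelihood test with 1 mean per population over all 10 libraries, TMM scaling, and Benjamini-Hochberg adjustment over all genes tested. The test was also run on counts simulated at the means of all genes tested. Most members were scarcer than those genes, so that run says little about their calls. Counting intervals are exact (Clopper-Pearson) at 95% and, like the floor of 3 counts, cover counting error only.

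Members were described in full by a rule: the 12 largest differences per comparison among members past adjusted p 0.05 whose libraries did not overlap, the 8 highest by mean FPKM in each population, the 6 highest that passed in no comparison, and the most abundant of each class. Members outside the rule (Kcnj1, Kcnj11, Kcnk1, Kcnk2, Kcnma1, Kcnn1, Kcnn2, Kcnt2, Kcnd3, Kcns1, Kcne4, Kcnab2, Trpc1, Trpc6, Trpm1, Trpm3, Trpm4, Trpm6, Trpv2) were chosen after their values were seen. The members and the lists were chosen with earlier results of these data known. Replicate pairs differed by more than counting error in every group, so that no library was taken as a duplicate. Alternatives were another scaling, DESeq2's Wald test, other filters, fits of 2 populations and each library left out. Some members that the rule names are not reported here or drawn, though counts and sums over all members include them.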

Additional observations from a re-analysis of the deposited data

Results flagged for a closer look

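In 6 of 53 groups of 4 LN-LEC values checked, 1 library lay farther from the rest than Dixon's 95% limit. Chance passes that limit for about 1 independent group in 20, but these groups were not independent. Kcnn4 is part of the sum of calcium- or sodium-activated channels, and the salivary gland list was chosen after its values were seen. The 6 are therefore not set against that rate. In LN-LEC replicate 4, Kcne1 had 81.1 normalized counts where the others had 0, Kcnn4 had 497.3 where the others had 103.7 to 126.6, and the summed FPKM of calcium- or sodium-activated channels was 9.99 where the others had 2.927 to 3.171. The salivary gland list stood at 2390000 summed normalized counts in the same library, where the others had 465500 to 593200. Kcnj15 was low in LN-LEC replicate 4, at 814.1 normalized counts where the others had 927.2 to 947.5. Kcnmb3 was low in LN-LEC replicate 1, at 6.481 normalized counts where the others had 17.77 to 18.23.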

How the results depend on the processing

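The 12 largest differences of each comparison among the members named by rule, 36 in all, were followed through the alternatives. Each of 614 values kept its direction, and 610 kept their side of the threshold. Trpm2 and Kcnc4 between LN-LEC and LN-BEC lost it. These differences had been chosen for passing with libraries that did not overlap, and the alternatives reuse the same libraries. A kept direction was therefore largely fixed by that choice and adds no support. Other calls of members that the rule names were lost under at least 1 alternative for Kcnmb1 and Kcne3 between LN-LEC and D-LEC, Kcnn3 and Kcnj14 between LN-LEC and LN-BEC, and Kcna2 and Trpm7 between D-LEC and LN-BEC. Of all members called, 36 of 44 between LN-LEC and D-LEC, 22 of 32 between LN-LEC and LN-BEC and 38 of 47 between D-LEC and LN-BEC were called under every alternative. The share of all called genes that kept their call is not given, so these counts describe the members only.

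Counts moved with the filter on low values, under which fewer members were tested. With 29 members at an FPKM of at least 1, LN-LEC against D-LEC had 10 higher in LN-LEC, 11 in D-LEC and 11 at least 5-fold different. LN-LEC against LN-BEC then had 7, 11 and 7, and D-LEC against LN-BEC had 9 higher in D-LEC, 16 in LN-BEC and 16 at least 5-fold different. With 48 members at a mean of at least 10, 16 were higher in LN-LEC than D-LEC. At least 5-fold different were 19 in that comparison (39.6%, background 11.5%) and 25 in D-LEC against LN-BEC (52.1%, background 14.3%). The other counts under these filters are given without a share over all genes and are not read against genes in general.

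Leaving out 1 library at a time gave 20 to 26 members higher in LN-LEC than D-LEC, 18 to 19 higher in D-LEC and 27 to 33 at least 5-fold different. The ranges were 11 to 13, 17 to 20 and 14 to 19 for LN-LEC against LN-BEC, and 13 to 16, 28 to 32 and 33 to 38 for D-LEC against LN-BEC. Shares over all genes are not given for these fits either. No paired analysis was possible because the labels give libraries no replicate numbers shared between populations. Members with few counts have wide errors, and depth limits what can be said of them.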
